A study of Mus musculus with 28 samples.

Results

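The transcriptional effect of losing ATF7 was compared with the effect of an earlier injection of lipopolysaccharide (LPS) in peritoneal resident macrophages of mice. The effects compare 16 of the 28 arrays of the study, 4 from each of 4 groups, chosen by their labels alone. The other arrays entered the gene filter, the choice of probe set and the estimate of spread. Wild-type and ATF7 knockout mice, both in the C57BL/6 background, received no injection. Wild-type C57BL/6 mice received phosphate-buffered saline (PBS) or LPS from E. coli O111:B4 into a vein at 7–8 weeks of age. Their macrophages were collected 3 weeks later by the sample labels, or 3–4 weeks later at 10–12 weeks of age by the treatment protocol. The LPS dose, the age of the uninjected mice, and the part of Atf7 that was deleted could not be taken from the labels or protocols. Cells were washed out of the peritoneum without thioglycollate and cultured overnight in serum-free medium, and non-adherent cells were rinsed off. Each array held RNA from 1 of 4 independent samples per group, and this number limits the precision of every value.

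Levels are log2 array signals, and differences between groups are log2 differences with their standard errors (SE). The knockout effect is knockout minus wild type, the LPS effect is LPS minus PBS, and the difference of effects is the knockout effect minus the LPS effect. No array is used in both effects. Of the genes on the array, 13512 were above background (a log2 signal of 6.32) in at least 4 arrays and were tested with limma, and a gene was called when its adjusted p, over all genes tested, was under 0.05. A difference of effects that missed this threshold does not show that both effects were equal, so its 95% confidence interval is given where it matters. A single array lay under background in the PBS group for Iigp1, Tnfsf10, Gbp4 and Nos2, in the knockout for Orm1, Cdca8 and Il5ra, in the LPS group for Pdgfc, and in wild type and LPS for Cd28.

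ATF7 is a transcription factor of the ATF/CREB family that can recruit enzymes placing the repressive H3K9 methylation mark, and stress kinases such as p38 can phosphorylate it. LPS is sensed by the receptor TLR4, which drives inflammatory cytokines through NF-κB and type I interferon through IRF3. Interferon then acts on genes that carry an interferon-stimulated response element, and these encode antiviral enzymes, guanylate-binding proteins and parts of the antigen-presentation machinery. Innate immune memory is the name for changes in macrophages that outlast the first stimulus. The comparison asks how far a macrophage without ATF7 resembles one whose host met LPS weeks earlier.

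Atf7 itself separated the knockout from the other groups. The probe set 10433032 measured 7.09, 7.09, 7.19 and 6.94 in the knockout against 10.03, 9.90, 10.09 and 9.85 in wild type, a 7.4-fold lower mean. A limma fit of each of the 14800 probe sets kept on its own gave it an adjusted p of 1.75e-19. The exact two-sided permutation test gave 0.0286, the smallest p that 4 against 4 arrays allow. After LPS the same probe set measured 10.15, 9.86, 10.03 and 9.90, and after PBS 10.31, 10.14, 9.86 and 9.84, so those groups overlapped. The 2nd probe set, 10433034, stands for Atf7 among the genes tested because its mean signal is higher. It was lower in the knockout by a smaller amount, 1.365-fold, with means of 10.28 and 10.73 (limma adjusted p = 7.70e-08 in the fit of single probe sets). Of 11 macrophage markers 3 were higher and 3 lower in the knockout, 0 were called after LPS, and the difference was called positive for 3 and negative for 1. Mean Adgre1 (F4/80) was 12.38 in wild type, 12.20 in the knockout, 12.38 after PBS and 12.33 after LPS, and Csf1r, the receptor for the macrophage growth factor, was between 12.58 and 12.69. B cell markers differed between the genotypes: the mean of 19 such genes was 8.39 to 9.04 in the wild-type arrays and 7.78 to 8.30 in the knockout, ranges that do not overlap, against 8.62 to 8.96 after PBS and 8.63 to 8.77 after LPS. In bulk RNA fewer cells of a type and less RNA per cell cannot be told apart.

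The knockout effect was the wider of the pair. It was called for 3830 genes (28.3% of those tested), 2388 higher (17.7%) and 1442 lower (10.7%), while the LPS effect was called for 1335 (9.88%), 589 higher (4.36%) and 746 lower (5.52%). The difference of effects was called for 3958 genes (29.3%), of which 2542 were positive (18.8%) and 1416 negative (10.5%); without knockout replicate 2 the negative ones were 894. These splits move with the scaling of the arrays. With each array centred on its median, which shifts the median knockout effect from 0.01 to 0.04 and the median LPS effect from -0.01 to -0.06, the LPS effect became 391 higher and 1484 lower, and the difference 3836 positive and 734 negative.

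Called in both effects were 416 genes, which is 10.86% of the knockout list and 31.16% of the LPS list. Over all genes tested, the LPS effect was called for 9.88% and the knockout effect for 28.3%. The 416 genes fell into 4 sets. Higher in both were 102 genes (0.755% of genes tested), lower in both 88 (0.651%), which makes 190 in the same direction (1.41%), higher in the knockout but lower after LPS 186, and lower in the knockout but higher after LPS 40; the opposite sets together hold 226 genes (1.67%). The 102 genes made up 17.32% of the LPS-higher list and 4.27% of the knockout-higher list. These shares were near those over all genes tested, of which 17.7% were higher in the knockout and 4.36% higher after LPS. The 186 made up 24.93% of the LPS-lower list, beside 17.7%, and 7.79% of the knockout-higher list, beside 5.52% of all genes lower after LPS. The 88 were 11.8% of the LPS-lower list and the 40 were 6.79% of the LPS-higher list, beside 10.7% of all genes lower in the knockout. Over all 13512 genes the effects were nearly unrelated as a description, with a Pearson correlation of 0.02 and a Spearman correlation of -0.18, and genes are not independent replicates. Size separated the sets: in 31 of the 102 genes higher in both, each effect was at least 1.5-fold, against 4 of 88, 3 of 186 and 2 of 40 in the others.

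**Figure D1:**
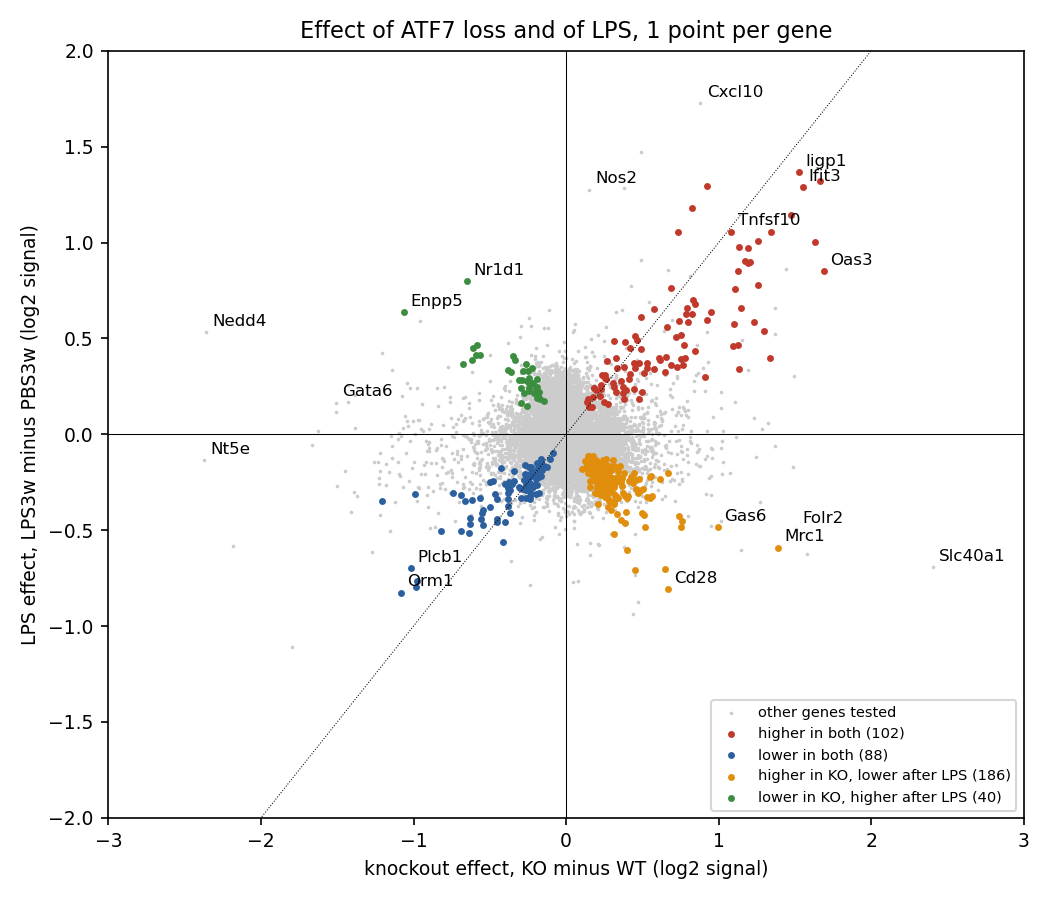
Each point is 1 gene, with its knockout effect (log2, horizontal) and its LPS effect (log2, vertical), and colours mark the 4 sets called in both effects. The largest shared rises are the interferon-induced genes at the upper right, while the 186 genes higher in the knockout and lower after LPS lie close to the origin apart from a few such as Mrc1, Cd28 and Gas6.

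The LPS calls were close to their threshold. The lowest adjusted p of any LPS effect was 0.00751, and 225 genes were under 0.02, against 2976 for the knockout. Leaving out LPS replicate 2 left 4 called genes (Abhd12, Kif3a, Pam16 and Trafd1, named after their values were seen), leaving out PBS replicate 3 left 172, PBS replicate 4 left 440, LPS replicate 1 left 596 and PBS replicate 2 left 849. A fit to the 16 arrays alone called 52. Leaving out LPS replicate 2 left no LPS call in any of the gene lists described here, which applies to each LPS count that follows. Each list count is to be read beside the shares over all genes tested. These were 17.7% higher and 10.7% lower in the knockout, and 4.36% higher and 5.52% lower after LPS. For the difference of effects they were 18.8% positive and 10.5% negative.

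**Figure D2:**
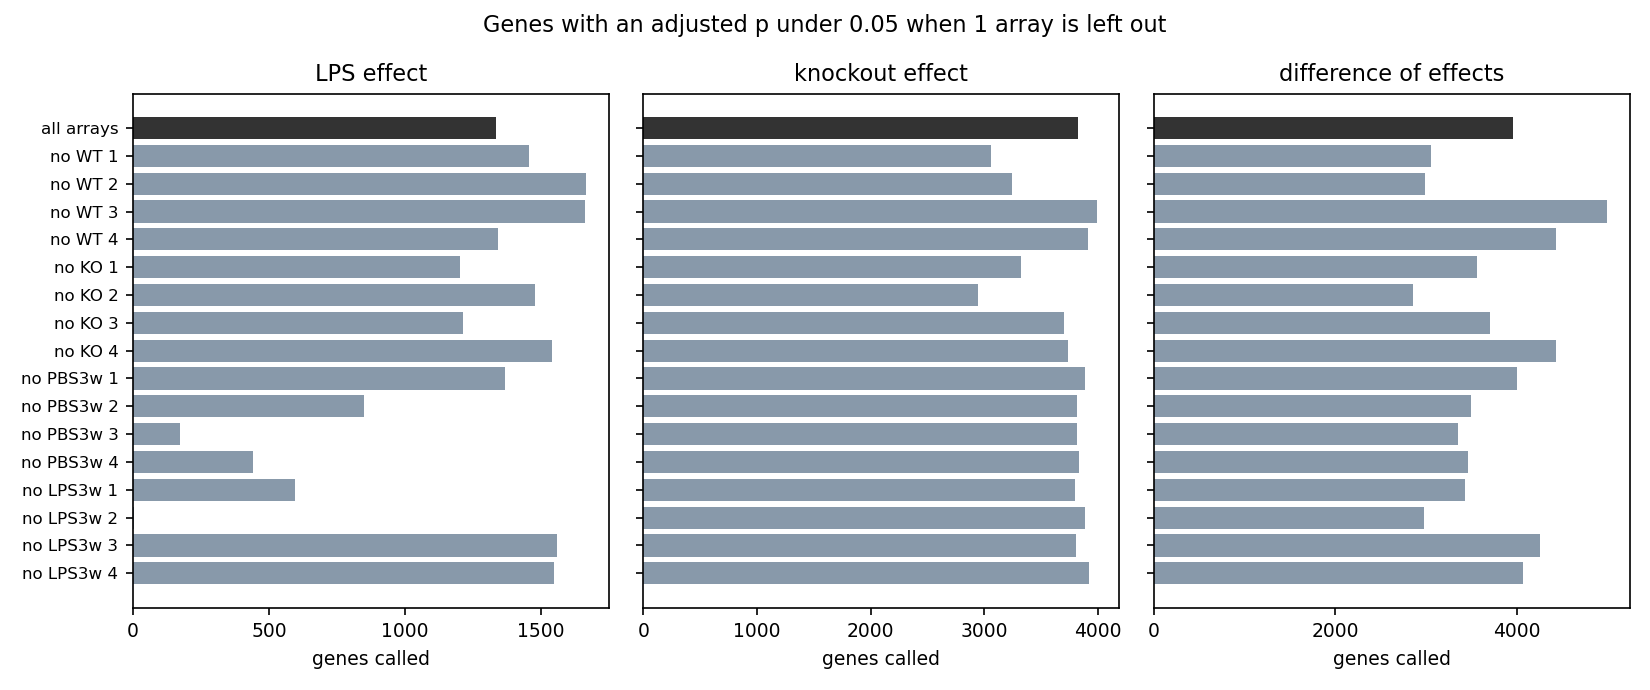
Number of genes called (horizontal) when all arrays are used and when 1 array of the 4 groups is left out (vertical). The knockout count stays between 2942 and 3991 and the difference between 2859 and 4998, while the LPS count runs from 4 without LPS replicate 2 to 1667 without wild-type replicate 2.

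Genes that moved together upward were led by the type I interferon response. Of 44 tested members of this list, 42 rose in the knockout and 32 after LPS, none fell in either, and the 32 were called in both. The median effect was 0.88 in the knockout and 0.54 after LPS, against 0.01 and -0.01 over all genes. For 28 of the 44 all 4 knockout arrays lay above all 4 wild-type arrays and all 4 LPS arrays above all 4 PBS arrays, a pattern that held in either direction for 1.44% of the genes tested; the arrays of knockout and wild type did not overlap for 21.9% and those of LPS and PBS for 17.8%. Without LPS replicate 2 no member passed for LPS, and the median LPS effect was 0.52; 7 passed without PBS replicate 3, 19 without PBS replicate 4 and 20 without LPS replicate 3. When the B cell marker mean was a covariate, 42 rose in the knockout and 33 in both.

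Ifit3 measured 8.46, 9.14, 8.68 and 9.27 in the wild-type arrays, 9.95, 10.55, 10.15 and 11.08 in the knockout, 8.93, 9.28, 8.40 and 8.84 after PBS and 10.02, 10.42, 10.60 and 9.57 after LPS. Ifit3 belongs to the family of proteins that bind viral RNA. The LPS and knockout groups each sat above their own control with no overlap. Its knockout effect was 1.55 ± 0.26 (SE, adjusted p = 6.65e-05), its LPS effect 1.29 ± 0.26 (SE, adjusted p = 0.0128), and the difference 0.26, with an interval of -0.51 to 1.03 (adjusted p = 0.6). Irf7 gave 9.23, 9.67, 9.34 and 9.84 in the wild-type arrays, 10.18, 10.85, 10.50 and 11.37 in the knockout, 9.43, 9.57, 9.45 and 9.91 after PBS and 10.21, 10.46, 10.66 and 10.63 after LPS. This gene encodes the transcription factor that amplifies type I interferon production, and again both pairs of groups were apart, by 1.21 ± 0.19 (SE, adjusted p = 2.67e-05) in the knockout and 0.90 ± 0.19 (SE, adjusted p = 0.014) after LPS. Oas3 read 8.03, 8.63, 8.25 and 9.13 in the wild-type arrays, 9.60, 10.34, 9.93 and 10.93 in the knockout, 8.48, 8.85, 8.71 and 9.18 after PBS and 9.39, 9.62, 9.92 and 9.68 after LPS. Oas3 makes the messenger that activates the ribonuclease RNase L. Oas3 was higher by 1.69 (adjusted p = 6.81e-06) in the knockout and by 0.85 (adjusted p = 0.0315) after LPS, and its difference of effects, 0.84 (0.14 to 1.54), was not called (adjusted p = 0.0615).

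The death ligand TRAIL behaved in the same way. Its gene Tnfsf10 measured 6.61, 6.77, 6.60 and 6.85 in the wild-type arrays, 7.30, 7.72, 7.69 and 8.45 in the knockout, 7.01, 7.09, 6.12 and 6.55 after PBS and 7.51, 8.07, 8.19 and 7.23 after LPS. The effects were 1.08 ± 0.24 (SE, adjusted p = 0.000914) and 1.06 ± 0.24 (SE, adjusted p = 0.0151), and their difference 0.03 (-0.66 to 0.71). Further members of the set with large changes on both sides were Ifit2 (1.66 in the knockout and 1.32 after LPS), Usp18, which removes ISG15 from proteins (1.19 and 0.97), Oasl1 (1.17 and 0.90), Zbp1, a sensor of Z-form nucleic acid (1.19 and 0.89), Cmpk2 (1.13 and 0.85) and Slfn1 (1.26 and 1.01). Ifit3b was also called higher in both, but it was under background in every wild-type and PBS array, so no size is given, and it is a near copy of Ifit3, so the probes of one may read the other. Across all 102 genes higher in both the median level was 8.75 in wild type and 8.78 after PBS, and 9.61 in the knockout and 9.38 after LPS. The count of 102 became 98 with the B cell marker mean as a covariate, and 79 of these were among the 102. It was 1 without LPS replicate 2, 13 without PBS replicate 3, 39 without PBS replicate 4, 59 without LPS replicate 3 and 66 without LPS replicate 1.

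**Figure D3:**
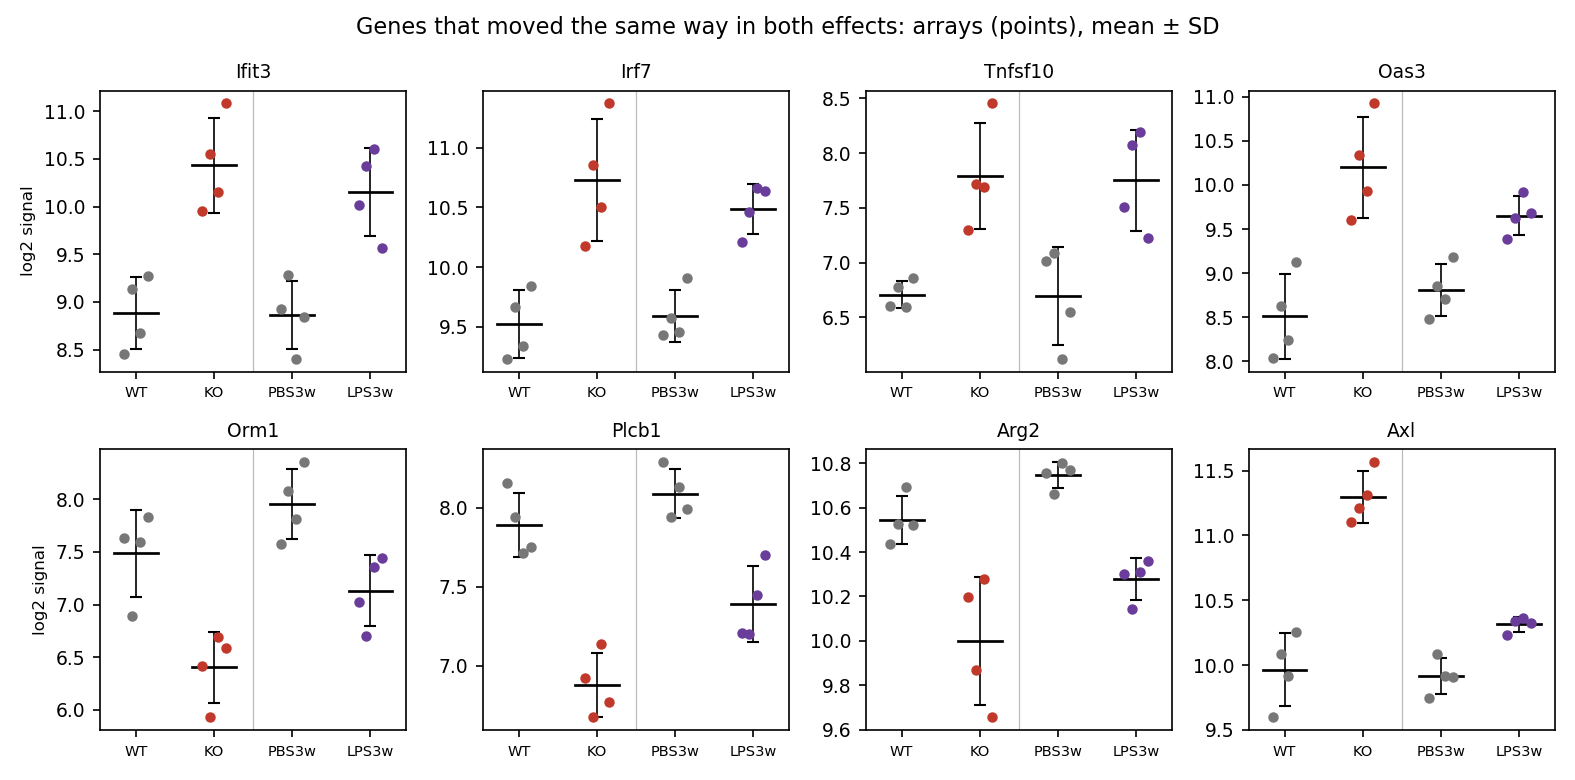
Log2 signal (vertical) of genes higher or lower in both effects, 1 point per array in the wild-type, knockout, PBS and LPS groups, with bars at the group mean ± SD (4 arrays). In Ifit3, Irf7, Tnfsf10, Oas3 and Axl the knockout and LPS arrays lie above their controls, and in Orm1, Plcb1 and Arg2 they lie below them.

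Promoter sequences of genes called in the same direction in both effects are shown because several carry the letters that interferon-activated factors recognise. RefSeq promoters on GRCm38.p6 were searched on both strands of the 250 bases before the start for the core of the interferon-stimulated response element, which reads GAAA, any 2 bases, GAAA. The windows are 50 bases long, 5′ to 3′ along the gene's strand, with each match in capitals; TTTC, any 2 bases, TTTC is the same core read on the opposite strand.
Ifit3, chr19:34583353-34583402, plus strand: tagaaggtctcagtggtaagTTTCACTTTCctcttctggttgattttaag
Ifit3, chr19:34583387-34583436, plus strand: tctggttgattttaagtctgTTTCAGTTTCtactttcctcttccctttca
Ifit1, chr19:34640765-34640814, plus strand: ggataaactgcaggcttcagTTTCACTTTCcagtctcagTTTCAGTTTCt
Oas3, chr5:120777705-120777754, minus strand: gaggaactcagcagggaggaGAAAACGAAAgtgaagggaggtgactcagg
Rsad2, chr12:26456543-26456592, minus strand: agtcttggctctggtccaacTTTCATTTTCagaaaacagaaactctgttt
Gbp5, chr3:142496749-142496798, plus strand: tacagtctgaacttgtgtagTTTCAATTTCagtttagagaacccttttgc
Gbp7, chr3:142530263-142530312, plus strand: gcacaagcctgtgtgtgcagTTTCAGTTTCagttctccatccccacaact
Stat4, chr1:52008123-52008172, plus strand: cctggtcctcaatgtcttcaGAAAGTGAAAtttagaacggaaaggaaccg
Counted from the start site, the Ifit3 matches begin at -156 and -122 and the Oas3 match at -75. The genes shown were higher in both effects except Stat4, which was lower in both and whose match begins at -97. The same core was found in 342 of 10712 listed promoters of tested genes (3.19%). Listed promoters covered 79.3% of all genes tested and 75 of the 102 genes higher in both (73.5%), under the 80% needed for a comparison of shares, so none is made. Also searched in the same way were the cyclic AMP response element TGACGTCA, to which the ATF/CREB family binds (2.84% of all listed promoters), and TGANTCA, the AP-1 site (5.68%). A match is a description of the letters and not evidence of binding.

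Genes best known for induction by interferon-γ moved on both sides too. Of 16 tested, 10 rose in the knockout and 13 after LPS, with none lower, 8 were called in both, and the medians were 0.71 and 0.64. The LPS rise was called for 3 without PBS replicate 3 and 6 without PBS replicate 4, with 2 called in both in each case. Iigp1 measured 6.49, 7.05, 6.81 and 7.41 in the wild-type arrays, 7.84, 8.39, 8.24 and 9.39 in the knockout, 7.62, 7.28, 6.31 and 6.93 after PBS and 8.19, 8.53, 8.53 and 8.34 after LPS. This immunity-related GTPase attacks the vacuoles of intracellular parasites, and it was higher by 1.53 ± 0.32 (SE, adjusted p = 0.000631) and 1.37 ± 0.32 (SE, adjusted p = 0.0179). Gbp4 gave 6.76, 6.89, 6.56 and 6.78 in the wild-type arrays, 6.90, 7.35, 7.21 and 8.48 in the knockout, 6.79, 6.87, 6.27 and 6.44 after PBS and 7.32, 7.83, 8.12 and 7.30 after LPS. The guanylate-binding protein rose by 0.73 (adjusted p = 0.0376) in the knockout and 1.05 (adjusted p = 0.0221) after LPS; knockout replicate 4 was the highest of its group. Gbp5 (0.83 and 1.18) and Gbp7 (0.84 and 0.68) were called in both.

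A pair of chemokines and the nitric oxide synthase gene passed only for LPS. Cxcl10 measured 8.95, 9.62, 9.09 and 9.75 in the wild-type arrays, 9.75, 9.97, 10.15 and 11.06 in the knockout, 9.55, 9.92, 8.29 and 8.70 after PBS and 10.91, 11.27, 11.22 and 9.98 after LPS. Cxcl10 attracts T cells through CXCR3. It rose after LPS by 1.73 ± 0.35 (SE, adjusted p = 0.0128), and its knockout effect of 0.88 (adjusted p = 0.0593) was not called. Cxcl9 gave 7.32, 8.52, 7.70 and 8.63 in the wild-type arrays, 7.96, 8.63, 8.64 and 8.90 in the knockout, 7.92, 8.39, 7.89 and 8.21 after PBS and 9.53, 9.87, 9.75 and 9.14 after LPS. Its LPS effect was 1.47 (adjusted p = 0.014) and its knockout effect 0.49 (adjusted p = 0.264). Nos2, which makes nitric oxide, rose after LPS by 1.28 (adjusted p = 0.0201) and had a knockout effect of 0.15 (adjusted p = 0.782). None of these differences of effects was called: -0.85 for Cxcl10 (-1.86 to 0.17, adjusted p = 0.184), -0.98 for Cxcl9 (-1.89 to -0.07, adjusted p = 0.0905) and -1.13 for Nos2 (-2.03 to -0.22, adjusted p = 0.0543).

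Within the type I interferon list some genes changed more in the knockout than after LPS. The difference of effects was called for 8 of the 44 type I members, all positive, a share near the 18.8% called positive over all genes tested. It was called for 15 without knockout replicate 1, 14 without LPS replicate 3, 13 without wild-type replicate 4 and 5 without wild-type replicate 1. The interferon-γ list was more even. Its median difference was -0.09, 7 of 16 knockout effects were above the LPS effect, and 2 differences were called positive and 0 negative. Without wild-type replicate 1 these calls were 0 positive and 2 negative. Tor3a measured 9.55, 9.56, 9.60 and 9.78 in the wild-type arrays, 10.65, 11.05, 10.68 and 10.64 in the knockout, 9.75, 9.99, 9.58 and 9.65 after PBS and 10.03, 10.18, 10.30 and 9.83 after LPS. Tor3a, an interferon-inducible ATPase of the endoplasmic reticulum, was called in both effects, at 1.13 and 0.34, and the difference was 0.79 ± 0.13 (SE, adjusted p = 1.33e-04). Oas1a had a difference of 0.66 (adjusted p = 0.00693), Bst2 (tetherin, which holds budding virus at the cell surface) 0.63 (adjusted p = 0.0183) and Ifi35 0.61 (adjusted p = 0.00203). Fcgr1, the high-affinity IgG receptor, rose by 1.16 (adjusted p = 1.25e-05) in the knockout, and its difference was 0.66 (adjusted p = 0.0417). Axl, a receptor tyrosine kinase for apoptotic cells that is outside the interferon lists, measured 9.60, 10.09, 9.92 and 10.25 in the wild-type arrays, 11.10, 11.21, 11.31 and 11.57 in the knockout, 9.75, 10.09, 9.92 and 9.91 after PBS and 10.23, 10.34, 10.36 and 10.33 after LPS. It rose in both, and its difference was 0.93 (adjusted p = 4.22e-04). Of the 102 genes higher in both, 76 had the larger effect in the knockout, and the difference was called for 10.

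MHC class I presentation followed the same direction in the knockout, with 15 of 17 tested members higher and none lower. After LPS the rise was less wide, with 8 higher and 1 lower, and 7 were higher in both. The list holds 23 genes, and H2-K1 and H2-D1 were among those not tested. Without PBS replicate 3 the LPS rise was called for 2, without PBS replicate 4 for 4, and without PBS replicate 2 or LPS replicate 3 for 5. Tap1, a subunit of the peptide transporter, rose by 0.78 (adjusted p = 2.10e-05) and 0.40 (adjusted p = 0.0398). Psmb10, an immunoproteasome subunit, rose by 0.61 and 0.40, and Psme2, of the proteasome activator, by 0.65 and 0.32. The differences of effects were called for 8 members, all positive, among them H2-Q4 (0.68) and Psmb8 (0.61). The chaperone Pdia3 was the member that fell after LPS, with an effect of -0.25 (adjusted p = 0.0336), while it rose in the knockout by 0.28 (adjusted p = 0.00543). MHC class II did not share this: 3 of 14 members rose and 4 fell in the knockout, and 1 (Cd40, the receptor for T cell help) rose after LPS. In the knockout, H2-Aa and H2-Eb1 fell by 0.38 and 0.29, and with the B cell marker mean as a covariate 0 members of the list were called lower.

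Inflammatory genes driven by NF-κB moved less uniformly. Of 36 members, 11 rose and 2 fell in the knockout, 5 rose after LPS, and 1, the adhesion molecule gene Icam1 (0.38 and 0.35), was called in both. No member was called in both without knockout replicate 1, 3 or 4, and 6 were without LPS replicate 4, 5 without PBS replicate 2 and 3 without PBS replicate 1. The LPS rise was called for 11 without LPS replicate 4, 8 without PBS replicate 2 and 2 without LPS replicate 3, and for 0 without PBS replicate 3, PBS replicate 4 or LPS replicate 1. Tnf measured 9.62, 9.64, 9.84 and 10.04 in the wild-type arrays, 10.62, 10.75, 10.51 and 10.86 in the knockout, 9.84, 9.97, 9.56 and 9.61 after PBS and 10.11, 10.11, 10.20 and 9.94 after LPS. Tnf rose in the knockout by 0.90 (adjusted p = 3.09e-06), its LPS effect was 0.34 (adjusted p = 0.0622), and the difference of 0.55 (adjusted p = 0.0176) was called. Il1a and Ptgs2, the latter encoding the prostaglandin synthase COX-2, had differences of 1.003 (adjusted p = 4.31e-04) and 0.66 (adjusted p = 0.0114). Il1b went the other way, falling in the knockout with an effect of -0.82 (adjusted p = 4.35e-04) and a difference of -0.77 (adjusted p = 0.0169). The neutrophil chemokine gene Cxcl2 was not called in either effect (0.38 and 0.19), and Ccl3 rose in the knockout by 0.29 with a difference of 0.16 (adjusted p = 0.173). Among pattern recognition receptors 6 of 36 rose and 3 fell in the knockout, beside 17.7% and 10.7% of all genes tested, and 3 fell after LPS, beside 5.52%. The LPS fall was called for 1 without PBS replicate 3 or PBS replicate 4. Tlr4, the LPS receptor itself, was called in neither effect (-0.03 and -0.17), and Tlr1 and Tlr3 had differences of 1.03 (adjusted p = 9.60e-06) and 0.62 (adjusted p = 0.000723).

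The genes that moved together downward changed less. In the 88 genes the median knockout effect was -0.29 and the median LPS effect -0.28. For 42 of them the arrays did not overlap on either side, a same-direction pattern found for 1.44% of all genes tested. The 88 were selected by their calls in both effects, which favours such separation. These 88 genes shared no programme list beyond single members of the lists used here (Cdca8 of the cell cycle and Clec4d of the pattern recognition receptors). Orm1 measured 7.63, 6.89, 7.59 and 7.83 in the wild-type arrays, 6.42, 5.93, 6.69 and 6.59 in the knockout, 7.58, 8.08, 7.82 and 8.36 after PBS and 7.02, 6.71, 7.36 and 7.44 after LPS. Orm1 encodes an acute-phase plasma protein. The knockout and LPS arrays were each below all of their controls, by effects of -1.08 ± 0.18 (SE, adjusted p = 5.28e-05) and -0.83 ± 0.18 (SE, adjusted p = 0.0144). Plcb1 gave 8.16, 7.94, 7.72 and 7.75 in the wild-type arrays, 6.93, 6.67, 7.14 and 6.77 in the knockout, 8.29, 7.94, 8.13 and 7.99 after PBS and 7.21, 7.20, 7.45 and 7.70 after LPS. This phospholipase C acts downstream of G protein-coupled receptors, and its effects were -1.01 ± 0.13 (SE, adjusted p = 1.72e-06) and -0.70 ± 0.13 (SE, adjusted p = 0.0128).

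Arg2 measured 10.44, 10.53, 10.69 and 10.52 in the wild-type arrays, 10.20, 9.87, 10.28 and 9.65 in the knockout, 10.76, 10.66, 10.80 and 10.77 after PBS and 10.30, 10.14, 10.31 and 10.36 after LPS. The mitochondrial arginase gene had effects of -0.54 (adjusted p = 2.21e-04) and -0.47 (adjusted p = 0.0144), with a difference of -0.07 (-0.37 to 0.23). Stat4, a transducer of interleukin-12 signals, had mean levels of 8.70 in wild type, 8.24 in the knockout, 8.92 after PBS and 8.47 after LPS. Its effects were -0.46 and -0.46. The membrane protein gene Ms4a4a (-0.98 and -0.77) and Nxpe5 (-0.98 and -0.80) were also lower in both. Hepacam2 was called in both as well, with every knockout and LPS array under background. The difference of effects was called for 6 of the 88. In the fit with the B cell marker mean as a covariate 50 genes were lower in both, and leaving out LPS replicate 2 left 0, PBS replicate 3 left 20, PBS replicate 4 left 35 and LPS replicate 1 left 50.

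In opposite directions went 186 genes, higher in the knockout and lower after LPS. Their median effects were 0.26 and -0.23. In levels the median was 8.82 in wild type, 9.13 in the knockout, 9.10 after PBS and 8.90 after LPS, so the control groups were not level: PBS stood above wild type by a median of 0.24. PBS minus wild type shares its arrays with both effects, and it was called for 32.7% of all genes tested, 19.7% higher and 12.9% lower after PBS. For the 102 genes higher in both, the same control difference had a median of -0.02. The count of 186 also moved with the setting, to 427 with each array centred on its median, 97 after repeated quantile normalization and 31 with the B cell marker mean as a covariate. It was 2 without LPS replicate 2, 24 without PBS replicate 3, 57 without PBS replicate 4, 64 without LPS replicate 1, 118 without PBS replicate 2 and 283 without PBS replicate 1.

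Mrc1 measured 6.91, 7.13, 7.27 and 7.10 in the wild-type arrays, 8.57, 8.56, 8.58 and 8.25 in the knockout, 7.41, 7.72, 8.16 and 8.36 after PBS and 7.02, 7.27, 7.29 and 7.70 after LPS. Mrc1 is the mannose receptor CD206, a scavenging lectin of alternatively activated macrophages. The knockout arrays were all above wild type, the PBS arrays ran up into the knockout range, and LPS overlapped PBS. Its effects were 1.39 ± 0.15 (SE, adjusted p = 1.28e-07) and -0.59 ± 0.15 (SE, adjusted p = 0.0227), and the difference was 1.98 ± 0.21 (SE, adjusted p = 6.80e-07). Gas6 gave 7.29, 7.22, 7.32 and 7.41 in the wild-type arrays, 8.46, 8.37, 8.47 and 7.93 in the knockout, 7.51, 7.91, 8.18 and 8.25 after PBS and 7.27, 7.40, 7.55 and 7.70 after LPS. Gas6 is the ligand of Axl and Mertk that bridges them to apoptotic cells. It rose in the knockout by 0.997 (adjusted p = 6.19e-06) and fell after LPS with an effect of -0.48 (adjusted p = 0.0348), and in it too PBS replicates 3 and 4 were the high arrays of their group. Cd28 read 6.04, 6.48, 6.60 and 6.53 in the wild-type arrays, 7.23, 6.94, 7.44 and 6.72 in the knockout, 7.02, 7.07, 7.30 and 7.75 after PBS and 5.87, 6.54, 6.58 and 6.91 after LPS. For Cd28, a costimulatory receptor best known on T cells, the effects were 0.67 (adjusted p = 0.0123) and -0.81 (adjusted p = 0.021) and both pairs of groups were apart. Of the 8 T and NK cell markers tested, 1 (Cd28) rose and 1 (Cd2) fell in the knockout, 1 (Cd247) rose and 1 (Cd28) fell after LPS, and the difference was called positive for 1 and negative for 4. The knockout call of Cd28 was lost without wild-type replicate 1 or knockout replicate 3, and with the B cell covariate.

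Gsta3 and Hpgds were also in this set. Gsta3 measured 7.34, 7.83, 8.15 and 8.39 in the wild-type arrays, 8.57, 8.73, 8.10 and 8.10 in the knockout, 7.95, 8.20, 8.40 and 8.26 after PBS and 7.15, 7.35, 7.56 and 7.93 after LPS. Gsta3 conjugates glutathione to electrophiles. LPS lay below PBS in all arrays while wild type and knockout overlapped, and the effects were 0.45 (adjusted p = 0.0484) and -0.71 (adjusted p = 0.0196). The knockout call of Gsta3 was lost without wild-type replicate 1, among other arrays, and with the B cell covariate. Hpgds, the prostaglandin D2 synthase of haematopoietic cells, had effects of 0.65 and -0.70. The actin-bundling protein gene Pls3 measured 8.29, 8.22, 8.74 and 8.76 in the wild-type arrays, 9.20, 9.46, 9.16 and 9.20 in the knockout, 8.71, 9.04, 9.12 and 9.46 after PBS and 8.56, 8.48, 8.61 and 8.88 after LPS. Its effects were 0.76 (adjusted p = 3.85e-05) and -0.45 (adjusted p = 0.0276). Pdgfc, a growth factor for stromal cells (0.74 and -0.43), and Bhlhe41, a transcription factor of the circadian clock (0.75 and -0.48), completed the 8 with the largest differences.

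**Figure D4:**
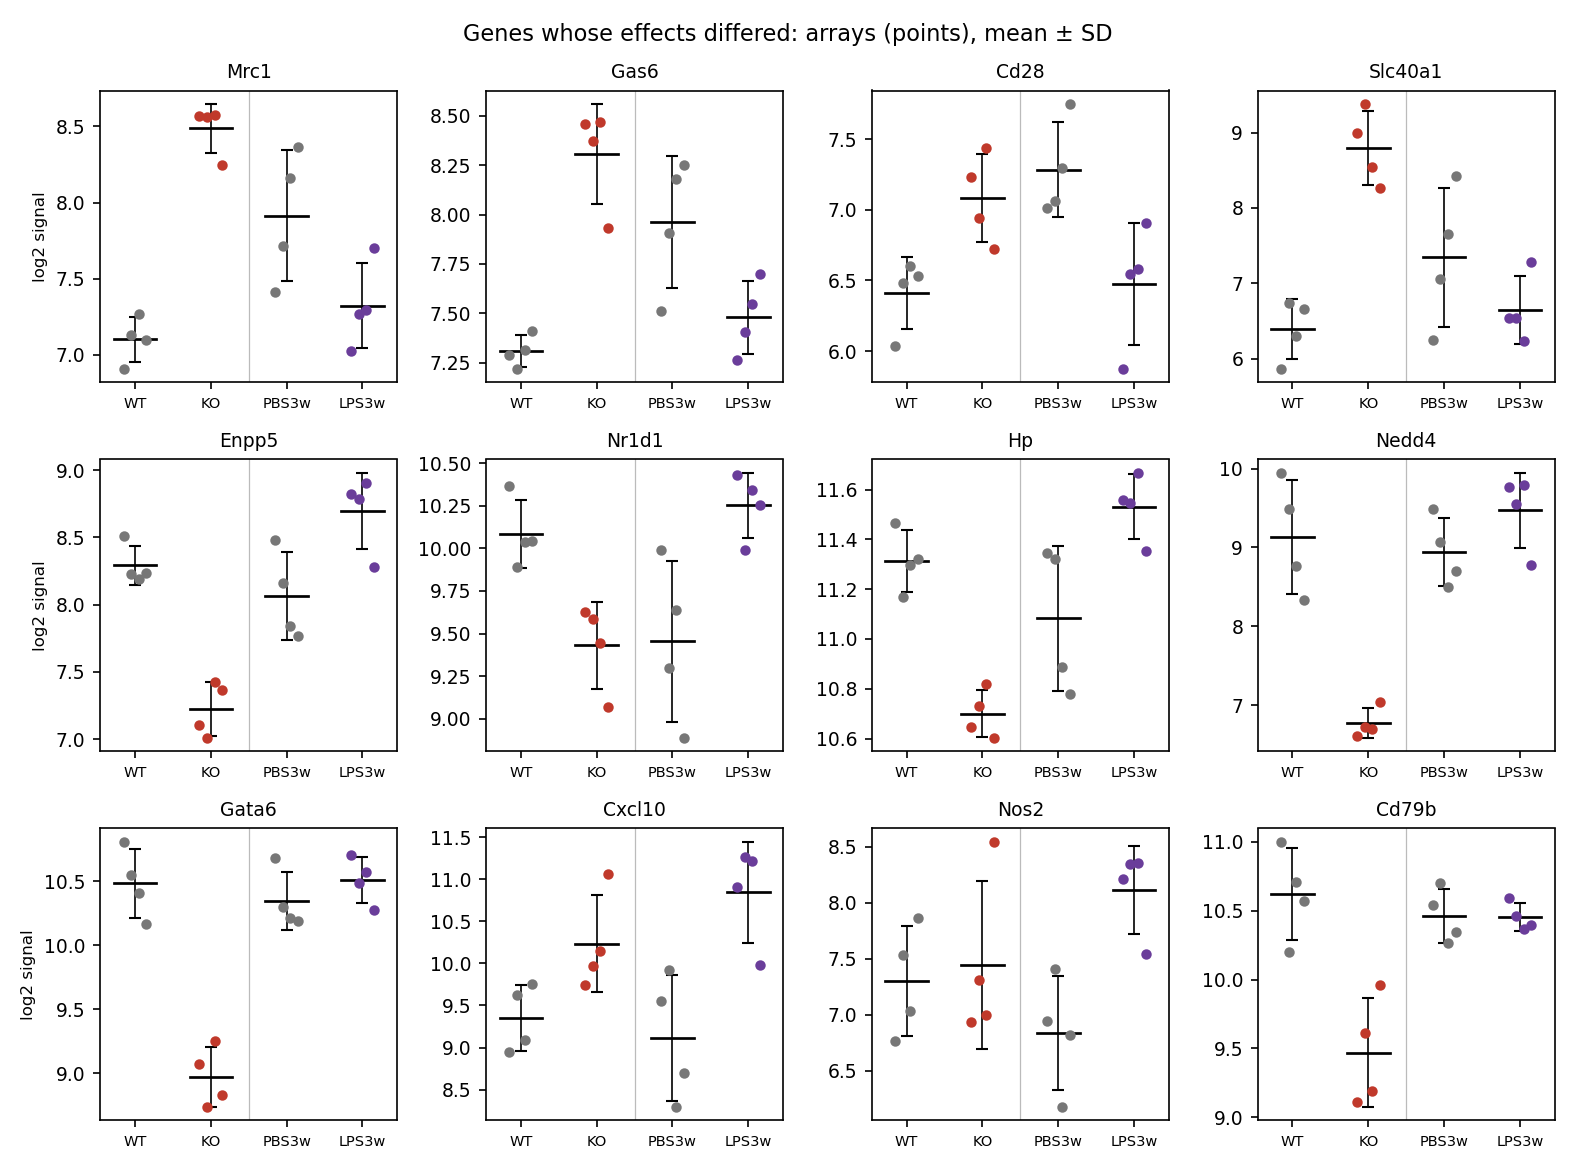
Log2 signal (vertical) of genes with opposite or unequal effects, 1 point per array in the wild-type, knockout, PBS and LPS groups, with bars at the group mean ± SD (4 arrays). Mrc1 and Gas6 are high in the knockout and in PBS replicates 3 and 4, whereas Enpp5 and Hp are low in the knockout and in those PBS arrays.

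The reverse pattern, lower in the knockout and higher after LPS, held for 40 genes with median effects of -0.26 and 0.28; their median PBS minus wild type was -0.28. Enpp5 measured 8.51, 8.23, 8.19 and 8.23 in the wild-type arrays, 7.11, 7.01, 7.42 and 7.37 in the knockout, 8.48, 8.16, 7.84 and 7.77 after PBS and 8.82, 8.79, 8.90 and 8.28 after LPS. Enpp5 is a membrane-bound member of the ectonucleotide pyrophosphatase family. All knockout arrays were below wild type, and the LPS and PBS ranges met. Its effects were -1.06 ± 0.14 (SE, adjusted p = 2.51e-06) and 0.64 ± 0.14 (SE, adjusted p = 0.0149), with a difference of -1.70 (adjusted p = 2.02e-06). Hp gave 11.47, 11.17, 11.30 and 11.32 in the wild-type arrays, 10.65, 10.73, 10.82 and 10.60 in the knockout, 11.34, 11.32, 10.89 and 10.78 after PBS and 11.56, 11.55, 11.67 and 11.35 after LPS. Haptoglobin, the haemoglobin-binding plasma protein, had effects of -0.61 (adjusted p = 2.03e-05) and 0.45 (adjusted p = 0.014), and both pairs of groups were apart.

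Nr1d1 measured 10.36, 9.89, 10.04 and 10.04 in the wild-type arrays, 9.63, 9.59, 9.45 and 9.07 in the knockout, 9.99, 9.30, 9.64 and 8.89 after PBS and 10.43, 9.99, 10.34 and 10.25 after LPS. Nr1d1 is REV-ERBα, a repressor of the circadian clock, and its effects were -0.65 (adjusted p = 0.00308) and 0.80 (adjusted p = 0.0128). The labels and protocols name no time of day at which cells were collected. The growth-arrest gene Gadd45a had values of 8.39, 8.32, 8.41 and 8.41 in the wild-type arrays, 7.81, 7.48, 7.86 and 8.06 in the knockout, 8.23, 8.14, 7.82 and 7.89 after PBS and 8.71, 8.44, 8.75 and 8.05 after LPS. For Gadd45a the effects were -0.58 (adjusted p = 0.00169) and 0.47 (adjusted p = 0.0333). Apcdd1, an inhibitor of Wnt signalling (-0.68 and 0.36), and Hdc, which makes histamine (-0.56 and 0.41), were also in the set. The count of 40 became 6 with the B cell marker mean as a covariate, 18 with the stricter filter and 21 with centred arrays. It was 0 without LPS replicate 2, 10 without PBS replicate 3, 12 without PBS replicate 4, 15 without LPS replicate 1, 23 without PBS replicate 2 and 75 without wild-type replicate 3.

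The largest positive differences of effects came mainly from genes that rose in the knockout. Slc40a1 measured 5.87, 6.73, 6.31 and 6.66 in the wild-type arrays, 8.998, 9.38, 8.54 and 8.26 in the knockout, 6.24, 7.06, 7.65 and 8.43 after PBS and 6.54, 6.54, 6.23 and 7.29 after LPS. Slc40a1 is ferroportin, the iron exporter. Knockout arrays were far above wild type, PBS spread over 6.24 to 8.43, and LPS overlapped it. Background was not passed in 2 wild-type, 1 PBS and 1 LPS array, so the size of these differences is uncertain. The knockout effect was 2.40 ± 0.30 (SE, adjusted p = 9.89e-07), the LPS effect -0.69 (adjusted p = 0.111) and the difference 3.10 ± 0.42 (SE, adjusted p = 1.14e-05). Folr2 gave 8.06, 8.71, 8.48 and 8.84 in the wild-type arrays, 9.84, 10.28, 9.71 and 10.29 in the knockout, 8.73, 9.33, 9.54 and 9.63 after PBS and 8.50, 8.74, 8.85 and 9.17 after LPS. Folate receptor β had a knockout effect of 1.51, an LPS effect of -0.49 (adjusted p = 0.052) and a difference of 1.998 (adjusted p = 1.83e-06). Tfrc read 7.73, 7.85, 8.24 and 8.09 in the wild-type arrays, 9.42, 9.69, 9.69 and 9.08 in the knockout, 8.09, 8.35, 8.05 and 7.77 after PBS and 7.86, 8.04, 8.06 and 7.62 after LPS. The transferrin receptor, which takes up iron, had a difference of 1.66 ± 0.20 (SE, adjusted p = 2.53e-06). Others at the top were Akr1b8, an aldo-keto reductase (2.20), Kitl, the ligand of Kit (1.62), Atp6v0d2, a subunit of the lysosomal proton pump (1.47), and Emp1 (1.43). The haemoglobin scavenger receptor gene Cd163 was at or under background in every wild-type array and at least 2.25-fold higher in the knockout, computed against the background level; it was also under background in every PBS array and not called after LPS.

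Identity genes of large peritoneal macrophages had mostly negative differences among those called. Of 38 tested, 19 fell and 3 rose in the knockout, 1 fell and 2 rose after LPS, and the difference was called negative for 20 and positive for 3. The rise after LPS, beside 4.36% of all genes tested, was called for 8 without PBS replicate 1 and for 7 without LPS replicate 4. It was called for 1 without PBS replicate 4, and for 0 without PBS replicate 3, LPS replicate 1 or LPS replicate 3. Gata6 measured 10.81, 10.55, 10.41 and 10.17 in the wild-type arrays, 9.07, 8.74, 9.25 and 8.83 in the knockout, 10.68, 10.30, 10.21 and 10.19 after PBS and 10.71, 10.48, 10.57 and 10.28 after LPS. Gata6 is the transcription factor that defines these macrophages. It fell in the knockout with an effect of -1.51 ± 0.12 (SE, adjusted p = 8.58e-10), its LPS effect was 0.16 ± 0.12 (SE, adjusted p = 0.327), and the difference was -1.68 ± 0.17 (SE, adjusted p = 3.36e-07). Cd93 gave 10.14, 10.51, 10.23 and 9.71 in the wild-type arrays, 9.08, 8.57, 8.31 and 7.98 in the knockout, 11.02, 10.29, 10.61 and 10.11 after PBS and 10.46, 10.37, 10.40 and 10.58 after LPS. Cd93, a surface glycoprotein, had a difference of -1.61 (adjusted p = 1.48e-04). Nt5e (CD73, which makes adenosine) differed by -2.24 (adjusted p = 2.35e-05), Vcan (versican) by -1.60 (adjusted p = 0.00318) and Serpinb2 by -1.59 (adjusted p = 1.25e-05); 1 of 4 knockout arrays passed background for Vcan and 3 for Nt5e. Under the B cell covariate 11 members fell in the knockout and 12 differences were negative.

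Outside the lists, Nedd4, a ubiquitin ligase, measured 9.94, 9.49, 8.77 and 8.33 in the wild-type arrays, 6.62, 6.73, 6.70 and 7.05 in the knockout, 9.48, 9.06, 8.50 and 8.71 after PBS and 9.77, 9.55, 9.79 and 8.77 after LPS. Its difference was -2.89 ± 0.35 (SE, adjusted p = 2.97e-06), the largest negative one, and its wild-type arrays were spread widely. Lcn2 measured 8.41, 8.70, 9.17 and 9.11 in the wild-type arrays, 7.42, 7.59, 7.27 and 7.37 in the knockout, 8.98, 9.12, 8.85 and 9.24 after PBS and 9.19, 8.99, 9.24 and 9.79 after LPS. Lipocalin 2, which withholds bacterial iron carriers, had a knockout effect of -1.43 (adjusted p = 1.28e-07), an LPS effect of 0.26 (adjusted p = 0.243) and a difference of -1.69 (adjusted p = 7.06e-06).

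In the antioxidant, lysosomal and oxidative phosphorylation lists most knockout calls were higher. No member was called higher after LPS, but only 4.36% of all genes tested were, which leaves few calls in lists of this size. Of 24 members of the NRF2 antioxidant list 15 rose in the knockout and none fell, 3 fell after LPS and none rose, and the difference was called positive for 17, with a median of 0.42. Sqstm1 measured 11.99, 12.17, 12.13 and 12.29 in the wild-type arrays, 12.53, 12.63, 12.47 and 12.60 in the knockout, 11.99, 12.15, 12.17 and 12.22 after PBS and 12.11, 12.09, 12.09 and 12.17 after LPS. The autophagy adaptor p62 had a difference of 0.43 (adjusted p = 1.25e-04). Me1, which makes NADPH, differed by 0.93 (adjusted p = 1.74e-05) and the peroxiredoxin gene Prdx1 by 0.42 (adjusted p = 4.65e-04). With the B cell marker mean as a covariate 3 members rose in the knockout and the difference was called for 3, with a median of 0.35, and without wild-type replicate 1 the knockout rise was called for 9. The fall after LPS was called for 6 without PBS replicate 1 or LPS replicate 4, 5 without wild-type replicate 1, 1 without LPS replicate 1 and 0 without PBS replicate 3.

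In the lysosome and autophagy list 17 of 33 rose and 5 fell in the knockout, 5 fell after LPS, and 19 differences were positive and 3 negative. The control groups were not level here. The list mean was 10.38 in wild type, 10.54 in the knockout, 10.53 after PBS and 10.42 after LPS. PBS minus wild type was called higher for 15 members and lower for 1, beside 19.7% and 12.9% of all genes tested. The LPS fall was called for 8 without wild-type replicate 1 or PBS replicate 1, 1 without PBS replicate 4 or LPS replicate 1, and 0 without PBS replicate 3. Gla measured 9.41, 9.69, 9.75 and 9.85 in the wild-type arrays, 10.35, 10.36, 10.12 and 10.07 in the knockout, 9.94, 10.09, 10.26 and 10.28 after PBS and 9.64, 9.70, 9.82 and 10.09 after LPS. Gla is the lysosomal α-galactosidase. It rose in the knockout by 0.55 (adjusted p = 3.71e-05) and fell after LPS with an effect of -0.33 (adjusted p = 0.0269). The proteases Tpp1 and Ctsb were called in opposite directions as well, Tpp1 at 0.29 and -0.19 and Ctsb at 0.18 and -0.12. For oxidative phosphorylation 24 of 41 rose in the knockout, none was called after LPS, and 21 differences were positive, but each was small, such as 0.42 (adjusted p = 0.00134) for cytochrome c1. With the B cell marker mean as a covariate 3 lysosomal and 4 oxidative phosphorylation genes rose in the knockout, and the positive differences were 7 and 9. For oxidative phosphorylation they were 12 or 13 without wild-type replicate 2, knockout replicate 2, LPS replicate 1 or LPS replicate 2, and without knockout replicate 2 the knockout rise was called for 15.

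Cholesterol synthesis had 10 of 20 members higher in the knockout, none called after LPS and 5 positive differences, including 0.73 (adjusted p = 0.0103) for Cyp51 and 0.67 (adjusted p = 0.029) for Fdft1. These differences were fragile, with 2 positive ones without wild-type replicate 2, knockout replicate 4, PBS replicate 1 or LPS replicate 2 and 3 without knockout replicate 3, PBS replicate 2 or LPS replicate 4, and 5 members rose in the knockout with the B cell covariate. Targets of ATF4 and the unfolded protein response had 12 higher and 3 lower of 29 in the knockout and 2 higher after LPS. The LPS rise was called for 7 without LPS replicate 4, and 4 without wild-type replicate 2, knockout replicate 4 or PBS replicate 2. It was called for 1 without PBS replicate 1, PBS replicate 4 or LPS replicate 1, and 0 without PBS replicate 3. Among these targets Asns, asparagine synthetase, differed by 0.79 (adjusted p = 2.82e-04). Wars, the tryptophanyl-tRNA synthetase that interferon also induces, rose in both (0.50 and 0.22). For glycolysis 5 of 17 rose and 4 fell in the knockout, and 1 fell after LPS. Hexokinase 3 (Hk3) had the widest difference named there, 1.13 (adjusted p = 1.37e-04).

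**Figure D5:**
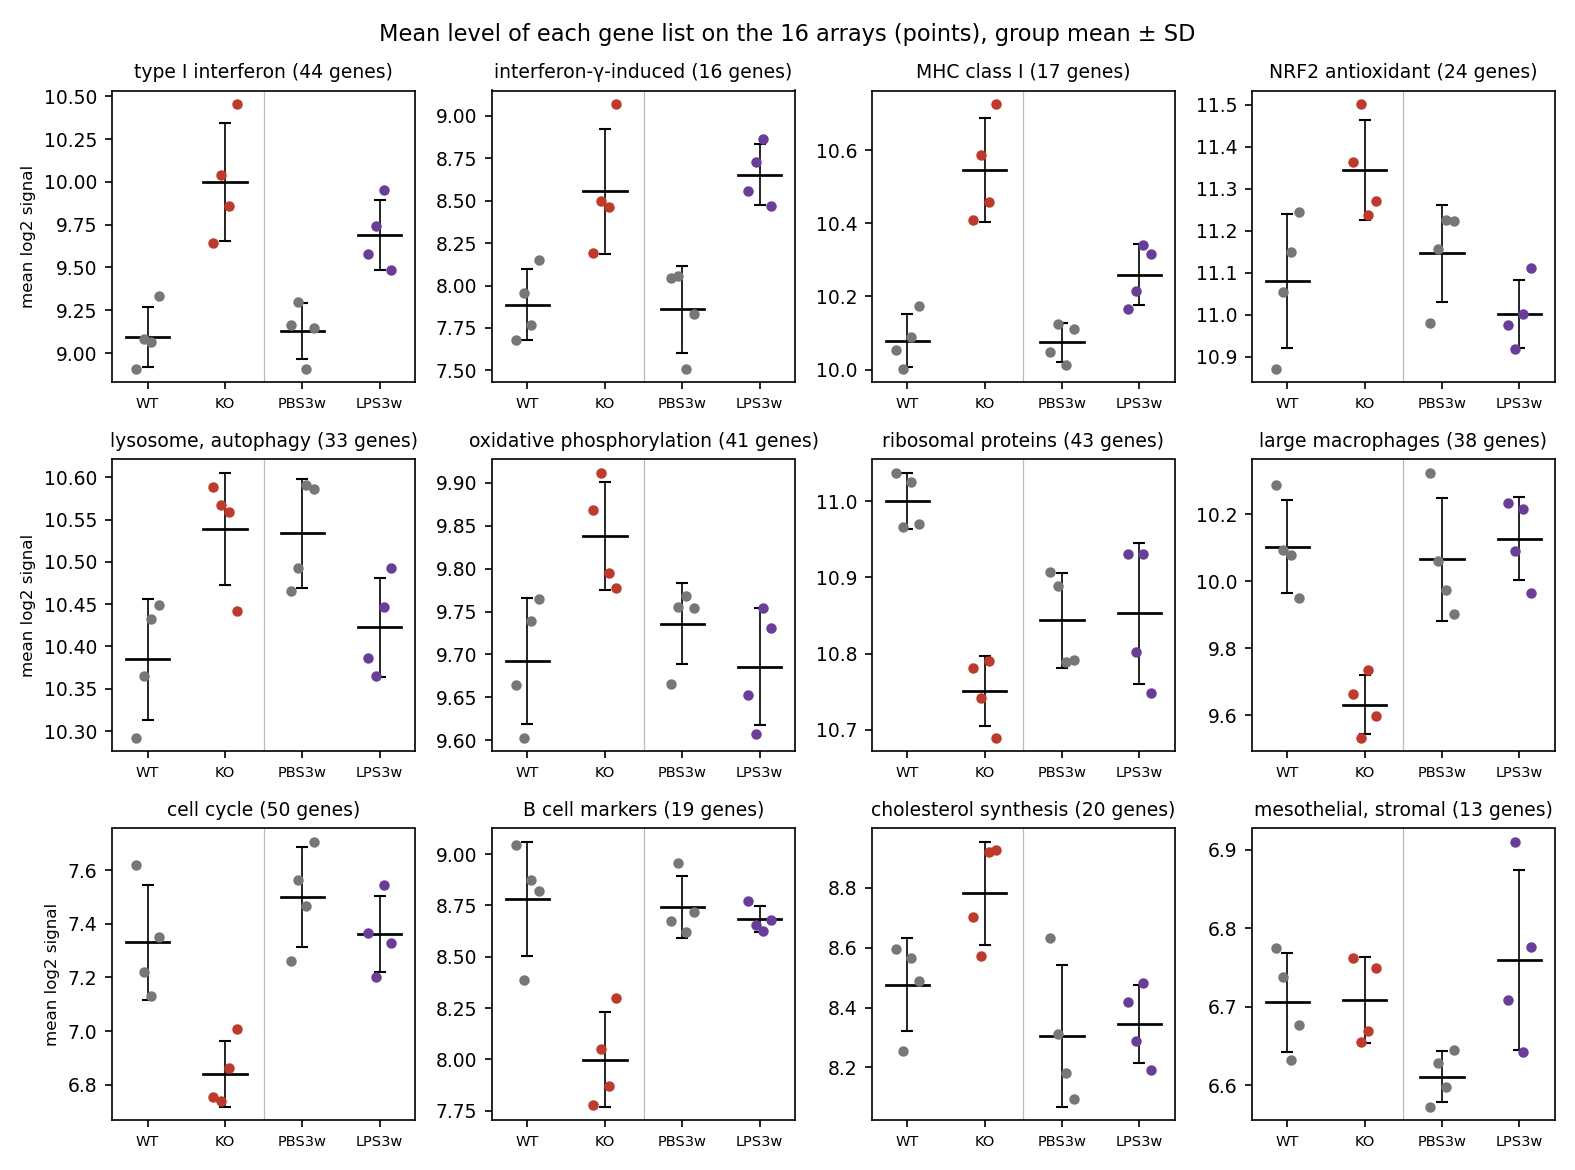
Mean log2 signal (vertical) over the tested members of each gene list, 1 point per array in the wild-type, knockout, PBS and LPS groups, with bars at the group mean ± SD (4 arrays). The type I interferon mean runs from 8.91 to 9.33 in wild type and 8.91 to 9.30 after PBS, below the knockout (9.64 to 10.46) and LPS (9.49 to 9.95), whereas the B cell mean is lowest in the knockout.

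Most knockout calls among cell cycle and ribosomal protein genes were lower. Of 50 cell cycle genes 33 fell and 1 rose in the knockout, 2 fell after LPS, and 17 differences were negative and 2 positive. The LPS fall, beside 5.52% of all genes tested, was called for 7 without PBS replicate 1 and 4 without LPS replicate 3. It was called for 0 without PBS replicate 2, PBS replicate 3, PBS replicate 4 or LPS replicate 1. Ccnb2 measured 8.97, 8.56, 8.35 and 8.77 in the wild-type arrays, 7.04, 6.95, 7.22 and 7.66 in the knockout, 8.46, 9.06, 8.95 and 9.36 after PBS and 8.85, 8.39, 9.11 and 8.71 after LPS. Cyclin B2 drives entry into mitosis, and its difference was -1.25 ± 0.24 (SE, adjusted p = 0.000552). Mki67, the Ki-67 proliferation marker, differed by -0.87 (adjusted p = 0.00429). With the B cell marker mean as a covariate 3 cell cycle genes fell in the knockout and 0 differences were negative. The negative differences also ranged from 9 without wild-type replicate 1, and 10 or 11 without knockout replicate 2, PBS replicate 1, PBS replicate 3 or LPS replicate 3, to 26 without wild-type replicate 3. Ribosomal protein genes were more even, with 36 of 43 lower in the knockout, 2 higher after LPS and 28 negative differences; under the same covariate 20 were lower in the knockout and 16 differences were negative. Rpl36 measured 11.67, 11.63, 11.58 and 11.55 in the wild-type arrays, 11.37, 11.27, 11.35 and 11.26 in the knockout, 11.41, 11.33, 11.28 and 11.28 after PBS and 11.52, 11.48, 11.58 and 11.38 after LPS. Its effects were -0.30 (adjusted p = 5.13e-06) and 0.16 (adjusted p = 0.0232). Many ribosomal protein genes have near-identical processed copies, whose signal the probes may share.

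The B cell markers themselves fell in the knockout, 16 of 19, and 1 was called after LPS; 17 differences were negative. Cd79b measured 11.001, 10.20, 10.71 and 10.57 in the wild-type arrays, 9.11, 9.61, 9.19 and 9.96 in the knockout, 10.54, 10.70, 10.27 and 10.34 after PBS and 10.60, 10.46, 10.36 and 10.40 after LPS. Cd79b is a signalling chain of the B cell receptor, and its difference was -1.14 ± 0.22 (SE, adjusted p = 4.87e-04). Of 3 eosinophil markers 2 fell in the knockout and none was called after LPS, including Il5ra, with means of 7.62 and 6.44. Among 5 neutrophil, 3 mast cell and 13 mesothelial and stromal markers, the knockout calls were 2, 1 and 1 lower and 0, 0 and 1 higher, and the LPS calls 0, 1 and 2 higher and none lower. Only part of each marker list was tested: 19 of 25 for B cells, 8 of 23 for T and NK cells and 3 of 7 for eosinophils. For neutrophils it was 5 of 12, for mast cells 3 of 10, and for mesothelial and stromal cells 13 of 15. The part of other cells in the effects was not tested beyond the covariate.

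Scavenging and alternative activation lists were mixed. In the list of apoptotic cell uptake 11 of 30 rose and 4 fell in the knockout, and 1 (Axl) rose and 2 fell after LPS. The LPS fall was called for 6 without LPS replicate 4, and 4 without PBS replicate 1 or LPS replicate 3. It was called for 1 without PBS replicate 4, and 0 without PBS replicate 3 or LPS replicate 1. The LPS rise was called for 0 without PBS replicate 3, PBS replicate 4, LPS replicate 1 or LPS replicate 3. In this list 11 differences were positive against 1 negative. Mertk differed by 0.36 (adjusted p = 0.00177) and Cd68, a lysosomal glycoprotein, by 0.35 (adjusted p = 0.000689). In the alternative activation list 7 of 21 rose and 2 fell in the knockout, 2 rose and 1 (Mrc1) fell after LPS. Pparg, a lipid-sensing nuclear receptor, differed by 0.87 (adjusted p = 1.39e-04), and the arginine transporter gene Slc7a2 rose in both (0.57 and 0.65). Markers of monocyte-derived macrophages and dendritic cells had 4 of 18 higher and 6 lower in the knockout; F13a1 went in opposite directions (0.40 and -0.60).

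Genes of ATF7's own family and of H3K9 methylation followed no single direction. Of 23 ATF/CREB and AP-1 genes 8 rose and 2 fell in the knockout, and 2 rose and 1 fell after LPS. Atf3, a stress-induced repressor, differed by 0.49 (adjusted p = 0.0102), Batf2 rose in both (0.49 and 0.44), and Fosb fell in the knockout and rose after LPS (-0.25 and 0.33), with 1 of 4 PBS arrays above background. Of 16 genes for H3K9 methylation and partners of ATF7, 2 rose and 1 fell in the knockout and 1 fell after LPS, beside 17.7%, 10.7% and 5.52% of all genes tested. Atf7ip, a cofactor of the H3K9 methyltransferase SETDB1, fell in the knockout with an effect of -0.17 (adjusted p = 0.00751), and Mapk14, the p38α kinase, differed by 0.22 (adjusted p = 0.0178).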

How the data were processed

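The values analysed are the intensities deposited by the authors, given on a linear scale for every probe set of each array and made with RMA in Affymetrix Expression Console per the submitters' processing notes. RMA corrects background, quantile-normalizes the arrays and summarises probes, so a shift shared by all genes would be removed. No software version or genome build is stated in the labels. Log2 was taken here. Of 35556 probe sets, 21789 name 1 gene. Those above 6.32, a background level below which 95% of 1210 probe sets for odorant or vomeronasal receptors had their mean signal, in at least 4 of 28 arrays were kept (14800), and the probe set with the highest mean stood for each of 13512 genes. limma 3.58.1 in R 4.3.3 fitted the means of all 7 groups, which share 1 estimate of the spread, with an intensity trend, and Benjamini-Hochberg adjusted p-values over all genes. The procedure was tested on simulated data.

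The genes named are Atf7, the 12 higher and 8 lower in both effects with the largest smaller effect among those whose arrays do not overlap, the 8 of each opposite direction and the 10 of each sign with the largest difference, up to 4 members of each list by difference and up to 4 called in both, and 13 fixed genes; predicted genes were left out, and some genes the rule names are not reported here. The comparison, the gene lists and the alternatives were chosen with earlier results of these data known. The alternatives were other fits, scalings, filters and probe set rules, a B cell covariate, and leaving out each array.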

Additional observations from a re-analysis of the deposited data

Results flagged for a closer look

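In groups of 4 arrays, an array was singled out when its gap to the nearest of the others, divided by the range of the group, was above the 95% critical value of Dixon's test. For the 36 genes whose array values were examined and 27 list means, 252 groups were tested and 10 stood out, and chance singles out about 1 group in 20. Tor3a was 11.05 in knockout replicate 2, against 10.64 to 10.68 in the other arrays of the group. Pls3 was 9.46 in knockout replicate 2, against 9.16 to 9.20. Mrc1 was 8.25 in knockout replicate 4, against 8.56 to 8.58. Enpp5 was 8.51 in wild-type replicate 1, against 8.19 to 8.23. Of the list means, pattern recognition receptors were 9.80 in LPS replicate 2, against 9.89 to 9.91, and apoptotic cell uptake was 9.79 in knockout replicate 3, against 9.69 to 9.70. Oxidative phosphorylation was 9.67 in PBS replicate 1, against 9.75 to 9.77. The list of H3K9 methylation and ATF7 partners was 8.61 in wild-type replicate 2, against 8.71 to 8.72, and 8.66 in knockout replicate 1, against 8.71 in the others. The ATF/CREB and AP-1 list was 8.64 in wild-type replicate 4, against 8.54 to 8.55.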

How the results depend on the processing

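Counts are of genes called. Of the results for single named genes, 11698 kept direction and side of the threshold, 650 lost the call, 106 gained it and 5 turned, all with the B cell marker mean as a covariate: Cd22, knockout effect, 0.0391; Cd2, knockout effect, 0.0902, and Cd2, difference of effects, 0.0053; Il5ra, knockout effect, 0.0608, and Il5ra, difference of effects, 0.2326. That covariate gave 1207 knockout calls (768 higher, 439 lower), a difference called for 1390 (1014 positive, 376 negative), 50 genes lower in both, 31 and 6 in the opposite sets, and a correlation of 0.135 between the effects. The B cell means of wild type and knockout do not overlap, so this covariate and genotype are hard to separate. A fit to the 16 arrays alone called 52 genes for LPS (26 higher, 26 lower), 892 negative differences, and 13, 6, 7 and 3 genes in the sets higher in both, lower in both, higher then lower, and lower then higher in knockout and LPS. Centring each array gave 391 higher and 1484 lower for LPS, 3836 positive and 734 negative differences, and 427 and 21 in the opposite sets. Repeated quantile normalization gave 815 for LPS (376 higher, 439 lower) and 97 higher then lower. The stricter filter gave 820 for LPS (196 higher), 726 negative differences and 18 lower then higher.

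Leaving out 1 array at a time gave 2942 to 3991 calls for the knockout (1781 to 2574 higher, 1152 to 1477 lower), 4 to 1667 for LPS (1 to 771 higher, 3 to 962 lower), 2859 to 4998 for the difference (1929 to 2951 positive, 894 to 2047 negative), 1 to 122 higher in both, 0 to 118 lower in both, 2 to 283 higher then lower and 0 to 75 lower then higher. Pearson correlations ran from -0.0816 to 0.0953 and Spearman correlations from -0.2964 to -0.0435, and PBS minus wild type gave 2752 to 5306.

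The replicate numbers do not pair the arrays: deviations of same-numbered arrays correlated at -0.353 to 0.446, and 3 of 8 pairs were each other's best. With a replicate block the calls were 3845 for the knockout, 1438 for LPS and 3980 for the difference, and 101, 113, 200 and 40 in the 4 sets. The causes of these changes were not tested. Low signals near background limit the size of any change that can be seen.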
